A study of Mus musculus with 8 samples.

Results

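The Plac8, Coq2 and Hpse domain is a stretch of mouse chromosome 5 between 100.59 and 101.15 Mb (build mm9) in which chromatin accessibility was lower in old than in young hematopoietic stem cells (HSCs). Its members are the 68 deposited peaks lying fully inside these limits, of 126871 peaks in all. The limits were chosen from the old against young comparison of these same libraries. Every old against young value in the domain is therefore a description, and no test is read from it.

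HSCs were sorted from bone marrow of C57BL/6 mice as LSK CD150+ CD48- cells, and accessibility was measured by bulk Omni-ATAC-seq, in which a transposase cuts and tags open DNA. Titles and cell type labels give 4 libraries of old HSCs and 4 of young HSCs. No allele or treatment is labelled, ages in weeks or months are not in the labels, and nothing says whether the libraries came from separate mice or pools, so the spread between libraries may be technical. Peaks carry no gene names, so the sorted cell type could not be checked against marker genes. In bulk libraries, fewer cells with a peak open and a less open peak in every cell cannot be told apart.

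Plac8 encodes a small cysteine-rich protein found in immune cells and blood progenitors. Coq2 encodes the mitochondrial prenyltransferase that attaches the side chain of coenzyme Q. Hpse encodes heparanase, which cuts heparan sulfate chains on cell-surface and matrix proteoglycans. In RefSeq's gene order the 3 genes are neighbours, all on the minus strand. Before Plac8 come Enoph1, Tmem150c, Sec31a (a COPII coat subunit), Lin54 (the DNA-binding subunit of the DREAM cell-cycle complex) and Cops4 (a COP9 signalosome subunit). After Hpse come Helq, Mrps18c, Abraxas1 and Gpat3. That gene order is from GRCm38.p6, while the peaks are in mm9, so no peak is assigned to a gene or a promoter here.

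The 250 bases before the RefSeq start of each of the 3 genes are given because these promoters name the domain, with the core of the ETS family of blood transcription factors (GGAA, or TTCC on the other strand) in capitals. Coordinates are GRCm38.p6, minus strand, and the sequences run 5′ to 3′ along the gene.
Plac8, chr5:100572206-100572455: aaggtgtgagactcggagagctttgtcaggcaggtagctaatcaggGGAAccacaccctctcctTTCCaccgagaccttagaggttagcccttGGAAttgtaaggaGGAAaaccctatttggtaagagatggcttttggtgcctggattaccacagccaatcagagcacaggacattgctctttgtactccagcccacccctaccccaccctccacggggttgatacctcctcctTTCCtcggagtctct
Coq2, chr5:100674257-100674506: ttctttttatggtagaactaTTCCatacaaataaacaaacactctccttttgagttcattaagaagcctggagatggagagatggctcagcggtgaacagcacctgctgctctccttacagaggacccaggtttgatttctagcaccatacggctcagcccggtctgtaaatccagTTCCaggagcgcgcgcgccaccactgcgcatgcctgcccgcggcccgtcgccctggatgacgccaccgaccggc
Hpse, chr5:100719717-100719966: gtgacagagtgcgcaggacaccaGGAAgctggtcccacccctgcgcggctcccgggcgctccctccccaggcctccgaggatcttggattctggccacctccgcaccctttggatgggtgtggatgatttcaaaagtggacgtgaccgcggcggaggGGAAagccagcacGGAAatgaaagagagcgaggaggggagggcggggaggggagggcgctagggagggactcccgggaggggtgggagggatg
The Plac8 stretch held 5 ETS cores, the Coq2 stretch 2 and the Hpse stretch 3, on both strands together. At least 1 was present in 93.4% of the 32851 RefSeq promoter stretches of this length. Plac8 also held the RUNX core TGTGGT at 2 places, the GATA core GATA at 1 and the NF-Y core CCAAT at 1. Of the RUNX matches, 1 shared a base with an ETS core. TGTGGT occurred in 14% of all stretches, GATA in 53.6% and CCAAT in 33.8%, on either strand. Coq2 and Hpse held none of these 3 cores. CG dinucleotides numbered 4 in the Plac8 stretch, 15 in Coq2 and 16 in Hpse, where the median stretch had 6. RefSeq lists a second start for Plac8, which is not shown.

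Library totals ran from 4200905 to 5129684 counts, of which the domain held 2028 to 2956 counts in old and 2686 to 3380 counts in young libraries. Levels are counts scaled to a common library size (CPM) after TMM scaling, a correction for library composition. Changes are fitted log2 fold changes, old minus young, with their standard error (SE), from an edgeR quasi-likelihood fit over all peaks that passed a count filter. A peak is called where its Benjamini-Hochberg adjusted p over all tested peaks is below 0.05. Old replicate 4 stood between the groups over all tested peaks. Its mean correlation with the young libraries was 0.907, against 0.842 to 0.857 for the other old libraries. Called peaks whose fold it moves by over 1.5 times, and peak 40, are given with and without it.

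Summed over its 68 peaks, the domain had 516, 489, 475 and 611 CPM in old libraries, against 687, 663, 672 and 728 CPM in young libraries. All 4 old libraries were below all 4 young ones, and old replicate 4 was the highest of the old. The means were 523 ± 61.4 CPM in old libraries and 687 ± 29.0 CPM in young ones (SD, n = 4 each), a ratio of 0.760, or 0.718 without old replicate 4. Domain peaks took 0.0443% to 0.0576% of counts in old and 0.0631% to 0.0689% in young libraries. The domain was thus lower in old HSCs but still held open peaks throughout.

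**Figure D1:**
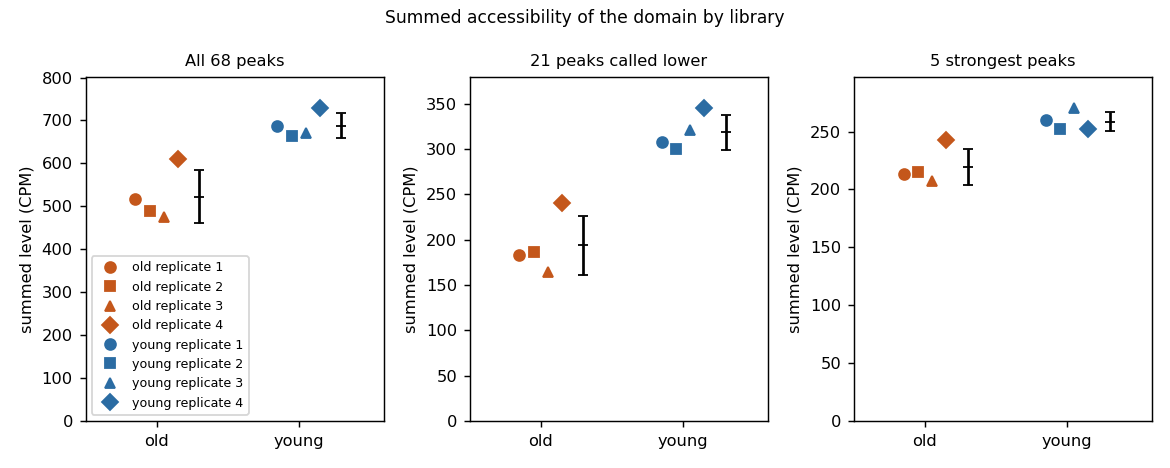
Summed level in CPM (vertical axis, from 0) of all 68 domain peaks, of the 21 peaks called lower and of the 5 strongest peaks, in each old (orange) and young (blue) library; marker shapes are replicates 1 to 4, and bars are the mean and SD of 4 libraries. For all 68 peaks the old libraries lay between 475 and 611 CPM and the young libraries between 663 and 728 CPM.

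Of the 68 peaks, 53 passed the count filter, and 21 of these were called lower and 1 higher in old HSCs. Across all 73164 tested peaks 10.4% were called lower and 10.0% higher, but the domain was picked for its lower calls, so this background is given only for scale. Without old replicate 4, 26 of 52 tested domain peaks were called lower and 0 higher, where 15.5% and 14.5% of all 76030 tested peaks were called. Without old replicate 3 the number lower was 13. Old was below young in all 4 against 4 libraries at 16 of the 53, and above at 1, where 10.6% and 10.5% of all tested peaks separated in these directions. The fitted change was negative at 46 of the 53. The median log2 fold change was -0.52 for tested domain peaks and 0.01 for all tested peaks. Among the 31 domain peaks tested but not called it was -0.20. Of the 21 lower calls, 11 were made in each of 14 alternative fits, which changed the tool, scaling, filter or block or left out 1 library. Another 9 were lost in at least 1 of them. With peaks numbered from left to right, peaks 7 and 40 were lost in 7, peaks 10 and 28 in 6, peaks 22 and 67 in 5, peak 17 in 4 and peaks 47 and 57 in 2. Peak 6 was not tested in 2 and was called in the others.

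Tested domain peaks were of ordinary width, with a median of 613 bases where all tested peaks had 621. With untested peaks included, the domain's median width was 541 bases, from 200 to 1294, where all deposited peaks had a median of 408. Tested domain peaks had a median level of 5.48 CPM over the 8 libraries, and all tested peaks 6.45 CPM. The median gap between neighbouring peaks was 4615 bases. The widest gap, 41462 bases, lay between chr5:100802928-100803347 and chr5:100844810-100845923 and parts the domain into a left and a right portion.

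**Figure D2:**
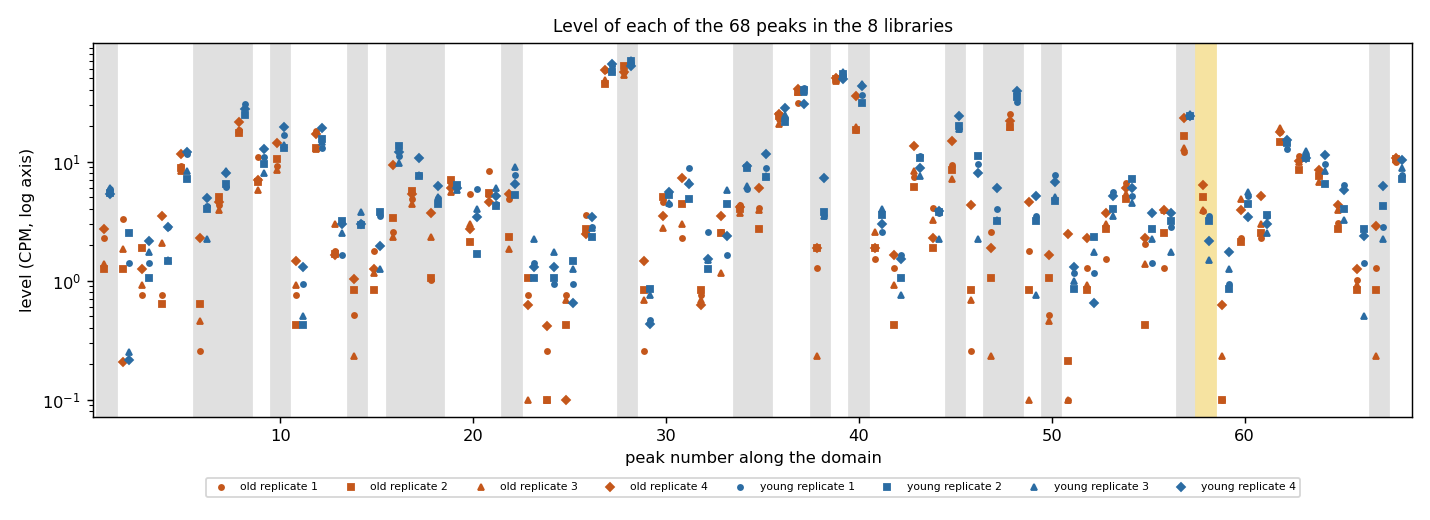
Level in CPM (log axis) of each of the 68 domain peaks, numbered from left to right, in old (orange, left of each pair) and young (blue) libraries; marker shapes are replicates, counts of 0 are drawn at the lower end of the axis, grey bands mark peaks called lower and the yellow band the peak called higher. The strongest peaks, numbers 27, 28, 37 and 39, held 37.1 to 57.5 CPM in old and 37.5 to 68.01 CPM in young libraries on average.

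The first lower call was at the first peak inside the left limit, and the next was peak 6, 39.8 kb from that limit. Summed over 0 to 40 kb, the old and young libraries overlapped. Peak 1, chr5:100590981-100591387, had 2.29, 1.26, 1.38 and 2.69 CPM in old libraries, against 5.83, 5.47, 6.0 and 5.39 CPM in young libraries. Young libraries were within a narrow range there and all old libraries lay below it, with a log2 fold change of -1.56 ± 0.29 (SE). The nearest peak outside, chr5:100587488-100588964, had 14.3, 13.3, 11.1 and 10.3 CPM in old libraries, against 11.9, 9.89, 10.5 and 9.69 CPM in young libraries. The groups overlapped, and its log2 fold change was 0.22 ± 0.17 (SE). The next peak outside, chr5:100579514-100579801, had 2.04, 2.31, 0.923 and 1.65 CPM in old libraries, against 0.70, 1.68, 2.0 and 1.51 CPM in young libraries and was too weak to be tested. Peak 2, chr5:100594851-100595139, was also too weak, with 3.31, 1.26, 1.85 and 0.207 CPM in old libraries, against 1.4, 2.53, 0.25 and 0.215 CPM in young libraries, and its groups overlapped. Within 400 kb to the left, 0 of 15 tested peaks were called lower and 2 higher, with a median log2 fold change of 0.17. The shares over all tested peaks were 10.4% lower and 10.0% higher. Peaks of that flank summed to 304 ± 5.52 CPM in old libraries and 272 ± 11.9 CPM in young ones (SD, n = 4 each).

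The first 140 kb held the most lower calls for its number of peaks, 8 of 12 tested, where 10.4% of all tested peaks were lower. It summed to 88.1 ± 13.2 CPM in old libraries against 130 ± 12.6 CPM in young ones (SD, n = 4 each). Peak 6, chr5:100629809-100630123, was near closed in old replicates 1 to 3, with 0.255, 0.631, 0.461 and 2.27 CPM in old libraries, against 4.2, 4.0, 2.25 and 4.95 CPM in young libraries. Old replicate 4 was slightly above young replicate 3, the lowest young library, so the groups overlapped. The log2 fold change was -2.01 ± 0.46 (SE) with all libraries and -2.99 without old replicate 4, and the peak was too weak to be tested without young replicate 2 or 4. Peak 7, chr5:100634550-100635151, had 4.33, 5.05, 3.92 and 4.55 CPM in old libraries, against 6.06, 6.52, 8.25 and 7.97 CPM in young libraries. Peak 8, chr5:100646064-100647107, was the strongest of this portion, with 18.6, 17.5, 18.5 and 21.5 CPM in old libraries, against 30.3, 24.4, 28.5 and 27.8 CPM in young libraries. Both were lower in every old library than in any young one, with log2 fold changes of -0.68 ± 0.22 (SE) and -0.54 ± 0.12 (SE). Between peaks 8 and 10, peak 9 averaged 7.62 ± 2.28 CPM in old libraries and 10.3 ± 2.02 CPM in young ones (SD, n = 4 each) and was not called. Peak 10, chr5:100655529-100656154, had 9.17, 10.5, 8.53 and 14.3 CPM in old libraries, against 16.8, 13.05, 13.8 and 19.4 CPM in young libraries. Old replicate 4 exceeded the lowest young libraries there, and the log2 fold change was -0.56 ± 0.19 (SE).

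Further along the first portion, peaks 14, 16 and 17 followed each other as called peaks. Peak 14, chr5:100665455-100665667, had 0.509, 0.841, 0.231 and 1.03 CPM in old libraries, against 3.03, 2.95, 3.75 and 3.02 CPM in young libraries. The old libraries were at most 1.03 CPM and the young ones at least 2.95 CPM, a log2 fold change of -2.20 ± 0.42 (SE). Peak 16, chr5:100668621-100669164, had 2.55, 3.37, 2.31 and 9.3 CPM in old libraries, against 11.2, 13.5, 9.75 and 12.1 CPM in young libraries. Old replicates 1 to 3 were close together and old replicate 4 was just below the lowest young library, so its fitted log2 fold change was -1.37 ± 0.34 (SE) with all libraries and -2.06 without old replicate 4. Peak 17, chr5:100700865-100701429, had 4.84, 5.68, 4.38 and 5.37 CPM in old libraries, against 7.7, 7.58, 7.75 and 10.8 CPM in young libraries, and its log2 fold change was -0.73 ± 0.22 (SE). Groups did not overlap at peak 17, and young replicate 4 was the highest. Peaks 5 and 12 in the same stretch hardly differed, at 9.47 ± 1.45 CPM in old libraries and 9.78 ± 2.45 CPM in young ones (SD, n = 4 each) and at 15.2 ± 2.73 CPM in old libraries and 15.5 ± 2.51 CPM in young ones (SD, n = 4 each).

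Between 140 and 280 kb 3 of 8 tested peaks were called lower. Further along it was 5 of 15 at 280 to 420 kb and 5 of 18 at 420 to 560 kb. The share called lower over all tested peaks was 10.4%. Peak 18, chr5:100733410-100733944, was the only peak of its bin of 40 kb and had 1.02, 1.05, 2.31 and 3.72 CPM in old libraries, against 4.9, 4.42, 5.0 and 6.25 CPM in young libraries. Young libraries were all above the old ones, and the log2 fold change was -1.31 ± 0.34 (SE). Peak 22, chr5:100788403-100789036, had 4.84, 2.31, 1.85 and 5.37 CPM in old libraries, against 7.7, 5.26, 9.0 and 6.46 CPM in young libraries, with overlapping groups and a log2 fold change of -0.97 ± 0.30 (SE). The 3 tested peaks between peaks 18 and 22 were not called. Peak 19 averaged 6.27 ± 0.629 CPM in old libraries and 6.04 ± 0.23 CPM in young ones (SD, n = 4 each). Peak 20 averaged 3.28 ± 1.42 CPM in old libraries and 3.74 ± 1.71 CPM in young ones (SD, n = 4 each). Peak 21, directly before peak 22, averaged 5.93 ± 1.7 CPM in old libraries and 4.95 ± 0.811 CPM in young ones (SD, n = 4 each), with the higher mean in old libraries.

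The 4 strongest peaks of the domain lay in its middle, with fitted log2 fold changes of -0.24 to -0.01. Strong peaks changed little in the whole table. In the class centred on 57.4 CPM, which takes in peaks 27, 28 and 39, the 5th to 95th percentile was -0.26 to 0.35. The median of that class was 0.06. Peak 27, chr5:100844810-100845923, had 58.3, 44.6, 48.4 and 59.1 CPM in old libraries, against 63.9, 56.2, 58.8 and 65.5 CPM in young libraries. Groups overlapped, and its log2 fold change of -0.22 ± 0.09 (SE) was not called with all libraries but was called lower, at -0.27, without old replicate 4. Peak 28, chr5:100858006-100859288, the strongest of all, had 56.01, 63.9, 53.3 and 56.6 CPM in old libraries, against 66.5, 70.5, 71.8 and 63.3 CPM in young libraries. It was called lower at a log2 fold change of -0.24 ± 0.07 (SE), the smallest of the called changes, although old replicate 2 was above young replicate 4. Peak 37, chr5:100928732-100930025, had 31.3, 38.1, 38.7 and 40.3 CPM in old libraries, against 41.5, 39.98, 38.3 and 30.2 CPM in young libraries, with a log2 fold change of -0.01 ± 0.11 (SE) and fully mixed groups. Peak 39, chr5:100947012-100948135, had 49.1, 49.6, 47.1 and 50.6 CPM in old libraries, against 52.00, 54.5, 56.8 and 49.5 CPM in young libraries and a log2 fold change of -0.11 ± 0.07 (SE). Peak 36, beside peak 37, averaged 23.3 ± 1.92 CPM in old libraries and 24.4 ± 2.76 CPM in young ones (SD, n = 4 each). The 5 strongest peaks, the last of them peak 40, took 39.4% of the domain's counts. Summed, these 5 had 213, 215, 207 and 242 CPM in old libraries, against 260, 252, 270 and 252 CPM in young libraries, a ratio of means of 0.848. The other 63 peaks summed to 303 ± 46.2 CPM in old libraries and 429 ± 33.3 CPM in young ones, a ratio of 0.707 (SD, n = 4 each).

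Beyond peak 28, the next peaks called lower were 34, 35, 38 and 40. The tested peaks 30, 31 and 33, before peak 34, were not called. Peak 34, chr5:100906435-100907259, had 4.33, 4.0, 3.69 and 4.13 CPM in old libraries, against 5.83, 8.84, 6.25 and 9.26 CPM in young libraries. Peak 35, chr5:100915954-100916707, had 4.07, 2.73, 3.92 and 6.0 CPM in old libraries, against 8.86, 7.37, 7.5 and 11.6 CPM in young libraries. In both, every old library was below every young one, with log2 fold changes of -0.91 ± 0.24 (SE) and -1.07 ± 0.25 (SE). Peak 38, chr5:100938190-100938727, had 1.27, 1.89, 0.231 and 1.86 CPM in old libraries, against 3.5, 3.79, 3.5 and 7.32 CPM in young libraries, and lay between 2 strong peaks that were not called. Its log2 fold change was -1.75 ± 0.41 (SE), with young replicate 4 well above the other young libraries. Peak 40, chr5:100954745-100955984, had 18.6, 18.5, 19.4 and 35.6 CPM in old libraries, against 35.9, 31.1, 44.5 and 43.5 CPM in young libraries. Old replicates 1 to 3 were at about the same level there and old replicate 4 lay inside the young range. The fitted log2 fold change was -0.74 ± 0.22 (SE) with all libraries and -1.03 without old replicate 4.

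**Figure D3:**
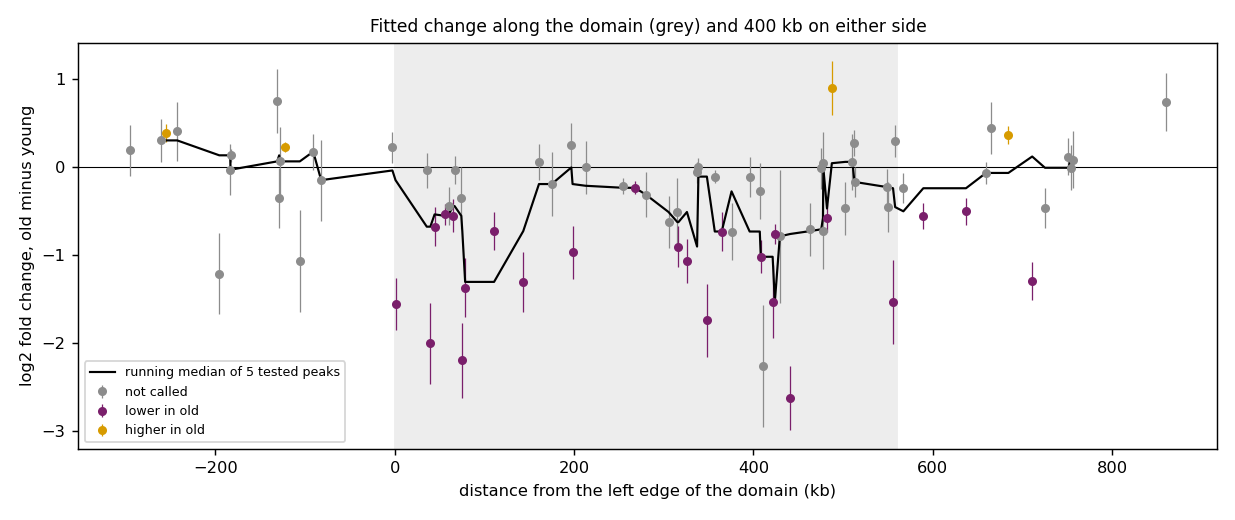
Fitted log2 fold change, old minus young (vertical axis), with SE bars, of every tested peak by distance from the left edge of the domain in kb (horizontal axis; domain in grey); purple peaks were called lower, yellow higher, grey not called, and the line is the running median over 5 neighbouring tested peaks. The line lies at -0.04 at the last tested peak before the domain and at -0.68 by 35.8 kb, reaches -1.53 at 424 kb, is at 0.04 at 488 kb, and is at -0.51 at 567 kb, just past the right edge.

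By the running median, the deepest fall lay between 400 and 440 kb from the left limit. In the bin of 40 kb at 400 to 440 kb the summed level was 43.03, 32.6, 30.7 and 49.6 CPM in old libraries, against 71.6, 76.4, 66.5 and 85.7 CPM in young libraries, a ratio of means of 0.519. The bin at 120 to 160 kb, which holds peak 18 alone, had a lower ratio, 0.394. Every old library was below every young library. The running median of the log2 fold change over 5 neighbouring tested peaks was lowest here, at -1.53, centred on peak 48. Peak 45, chr5:100998293-100999401, had 9.42, 8.41, 7.15 and 14.9 CPM in old libraries, against 18.9, 19.99, 18.8 and 23.9 CPM in young libraries. Peak 47, chr5:101011530-101011756, had 2.55, 1.05, 0.231 and 1.86 CPM in old libraries, against 3.96, 3.16, 3.25 and 6.03 CPM in young libraries. Peak 48, chr5:101013996-101014936, had 24.9, 19.6, 19.4 and 21.7 CPM in old libraries, against 31.9, 35.1, 39.3 and 38.8 CPM in young libraries. All 3 had old libraries entirely below young ones, at log2 fold changes of -1.02 ± 0.19 (SE), -1.53 ± 0.42 (SE) and -0.76 ± 0.11 (SE). Peak 50, chr5:101030884-101031290, had 0.509, 1.05, 0.461 and 1.65 CPM in old libraries, against 7.7, 4.63, 5.0 and 6.68 CPM in young libraries. This was the largest called change in the domain, -2.63 ± 0.37 (SE), at a peak near closed in all old libraries.

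Past this low point fewer peaks were called lower. Peak 57, chr5:101072137-101073283, had 11.97, 16.4, 12.9 and 23.2 CPM in old libraries, against 24.3, 24.2, 25.00 and 24.1 CPM in young libraries. The young libraries were almost identical and old replicate 4 reached close to them, with a log2 fold change of -0.58 ± 0.16 (SE). Peak 58, chr5:101077568-101078262, the next peak, was the one peak called higher, with 3.82, 5.05, 3.92 and 6.41 CPM in old libraries, against 3.5, 3.16, 1.5 and 2.15 CPM in young libraries. Every old library was above every young one, at a log2 fold change of 0.89 ± 0.31 (SE). That call was not made with total count scaling or with the DESeq2 test, nor without old replicate 2, old replicate 4, young replicate 3 or young replicate 4. From peak 59 to peak 66 there was 0 called in either direction by edgeR. Peak 62, the strongest of these, averaged 17.2 ± 1.94 CPM in old libraries and 14.2 ± 1.03 CPM in young ones (SD, n = 4 each). Peak 63 beside it averaged 9.92 ± 1.15 CPM in old libraries and 11.2 ± 0.722 CPM in young ones (SD, n = 4 each).

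One more peak near the right limit was called lower. Peak 67, chr5:101145785-101146126, had 1.27, 0.841, 0.231 and 2.89 CPM in old libraries, against 2.8, 4.21, 2.25 and 6.25 CPM in young libraries. Old replicate 4 was above young replicates 1 and 3, so groups overlapped. The log2 fold change was -1.53 ± 0.48 (SE) with all libraries and -2.30 without old replicate 4. The call was lost without any 1 of old replicates 1, 2 and 3 and young replicates 2 and 4. The last peak inside, peak 68, chr5:101148163-101149074, had 9.93, 10.5, 10.4 and 10.7 CPM in old libraries, against 7.7, 7.15, 8.75 and 10.3 CPM in young libraries and was not called, at 0.29 ± 0.18 (SE). Just outside, chr5:101157325-101158290 had 11.2, 14.3, 14.3 and 9.3 CPM in old libraries, against 13.1, 14.1, 16.3 and 14.9 CPM in young libraries, with a log2 fold change of -0.25 ± 0.17 (SE) and no call. The next outside, chr5:101179542-101180305, had 15.3, 11.1, 17.5 and 16.95 CPM in old libraries, against 23.8, 22.3, 21.5 and 22.2 CPM in young libraries. It was called lower, at -0.56 ± 0.14 (SE), with all old libraries below all young ones.

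The right limit was therefore not where lower calls ended. Within 400 kb to the right 3 of 12 tested peaks were called lower and 1 higher, with a median log2 fold change of -0.04. Of all tested peaks, 10.4% were called lower and 10.0% higher. Whether the calls in this flank exceed those shares was not tested. Apart from the peak just named, the lower ones were chr5:101227130-101228167, at -0.51 ± 0.15 (SE), and chr5:101300979-101301467, at -1.30 ± 0.21 (SE). The higher one, chr5:101274399-101275908, lay between these and had 33.4, 29.2, 36.2 and 32.9 CPM in old libraries, against 25.2, 25.3, 27.3 and 25.2 CPM in young libraries. Summed over all its peaks, the right flank had 140 ± 6.40 CPM in old libraries and 160 ± 9.19 CPM in young ones (SD, n = 4 each). In bins of 40 kb the ratio of old to young means was 0.893 at 480 to 520 kb and 0.854 at 520 to 560 kb, both with overlapping groups. It was 0.743 at 560 to 600 kb and 0.693 at 600 to 640 kb, both past the limit and with old entirely below young. It then returned to 1.001 at 640 to 680 kb and 0.977 at 680 to 720 kb.

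All 14 bins inside the domain had a lower mean in old than in young libraries, with ratios from 0.394 to 0.895. In 8 of them every old library was below every young one. Outside the domain this also held at 560 to 600 kb and at 600 to 640 kb. At -280 to -240 kb and at -160 to -120 kb every old library was above every young one. Bins elsewhere in the genome were not summed, and the limits were chosen for lower calls, so this only describes the domain. The last bin before the domain, which held 1 tested peak, had a ratio of 1.12. The bin before that had a ratio of 0.563, from 3 untested peaks that summed to 4.07, 1.47, 1.85 and 3.31 CPM in old libraries, against 7.0, 2.95, 3.25 and 5.82 CPM in young libraries, with overlapping groups.

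**Figure D4:**
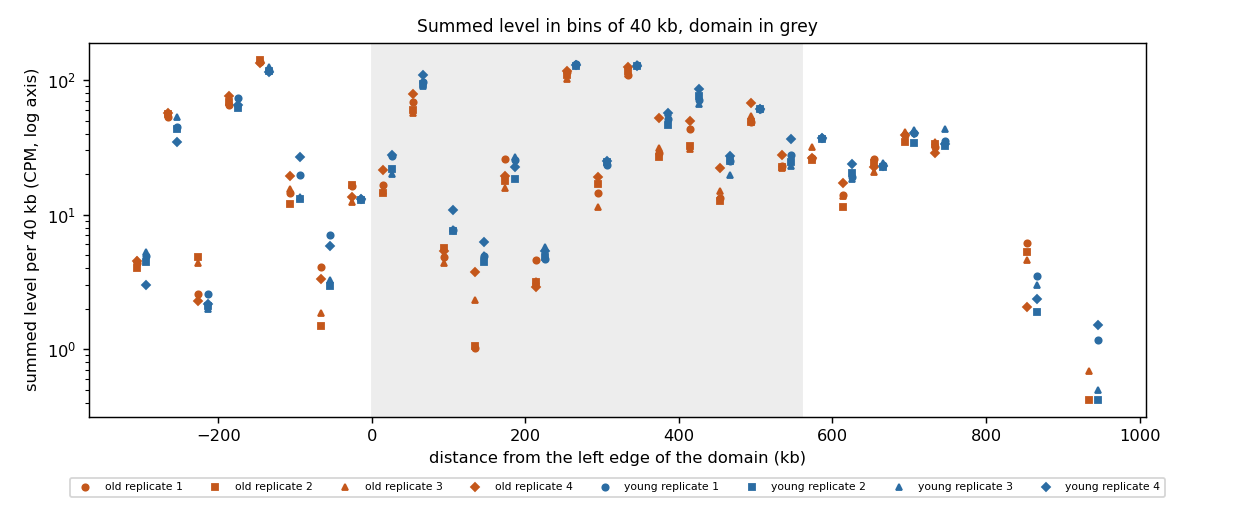
Summed level per bin of 40 kb (CPM, log axis) in old (orange) and young (blue) libraries by distance from the left edge of the domain in kb; the domain is grey, marker shapes are replicates, and sums of 0 are not drawn. At 400 to 440 kb old libraries held 30.7 to 49.6 CPM and young libraries 66.5 to 85.7 CPM.

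Weaker domain peaks tended to have the more negative fitted changes. In the whole table weaker peaks tended to have larger changes of either sign. Across the 53 tested domain peaks Spearman's rho between log2 fold change and mean level was 0.34, and across all tested peaks 0.08. Between the size of the change, whatever its sign, and the mean level it was -0.33 across all tested peaks. For the domain alone this second rho was not computed. The peaks behind each rho share the 8 libraries, and weak peaks also have wider errors. The 9 domain peaks in the top 20% of all tested peaks, at 19.6 CPM or more, had a median log2 fold change of -0.24 and 5 lower calls. The other 44 had a median of -0.54 and 16 lower calls. Over all tested peaks the medians of the same classes were 0.06 and -0.02, with 7.87% and 11.1% called lower.

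**Figure D5:**
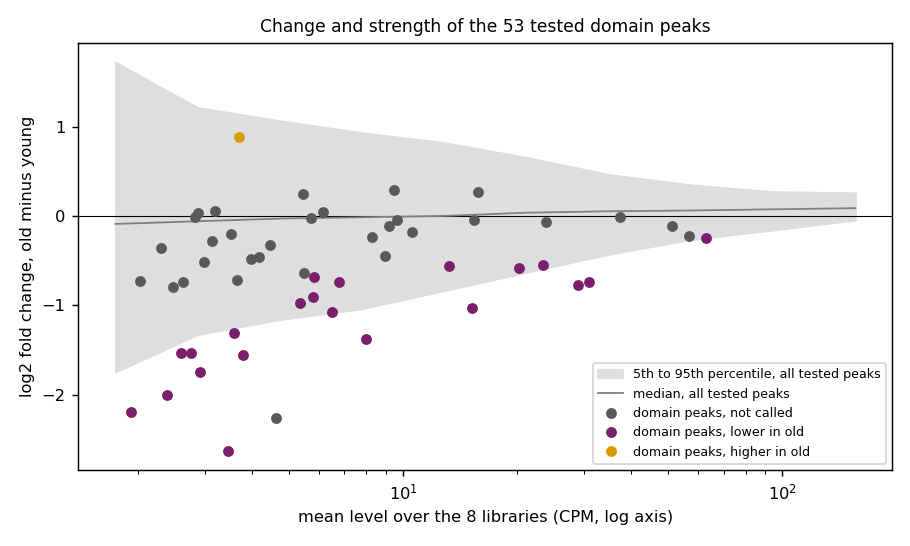
Log2 fold change, old minus young (vertical axis), against mean level over the 8 libraries (CPM, log axis) for the 53 tested domain peaks; purple peaks were called lower, yellow higher and grey not called, and the band is the 5th to 95th percentile of all tested peaks of like strength. Domain peaks lie mostly below 0, from -2.63 at peak 50 to 0.89 at peak 58.

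Old replicate 4 was the highest old library at 14 of the 21 peaks called lower, and at 61.9% of all peaks called lower in the table. At 5 of the 21 it reached into the young range, while old replicates 1 to 3 all lay below every young library at 20 of the 21. A lower call itself favours such separation, and the matching shares over all peaks called lower were not worked out. Among tested peaks, called or not, old replicate 4 was the highest old library at 32 of 53 in the domain and at 30.2% of all. Summed over the 21 peaks, levels were 183, 187, 165 and 240 CPM in old libraries, against 308, 300, 321 and 345 CPM in young libraries. Old replicate 4 was again the highest old library and below every young one. The part of this library's position in the domain's values was not tested beyond leaving it out.

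The 15 peaks too weak for the filter, at 0.70 to 1.94 CPM over the 8 libraries, mostly leaned the same way. At 12 of them the old mean was below the young mean, and at 4 all old libraries were below all young ones. With the filter removed, 20 domain peaks were called lower. The shares over all peaks too weak for the filter, and over all peaks with no filter, were not worked out. These counts therefore only describe the domain.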

How the data were processed

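The authors deposited a table of raw counts, with 1 row per peak and 1 column per library; peaks are common to all 8 libraries. Per the labels' protocols, sorted cells went through Omni-ATAC-seq, with a Nextera kit for the libraries. Per the submitters' processing notes, the tools were Bowtie2, SAMtools, Picard, MACS2, FastQC and Trim Galore, with no versions, on build mm9. How peaks were merged, which program counted reads and whether read ends were shifted is not given there. Peaks called on the compared libraries favour sites open in at least 1 group. Columns were matched to samples by title.

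Peaks were kept by filterByExpr (minimum count 10, minimum total 15). Old and young were compared over all kept peaks with edgeR 4.0.16 (R 4.3.3; TMM, glmQLFit robust, glmQLFTest, group only), and the procedure was tested on simulated data. Alternatives used DESeq2 1.42.0, limma 3.58.1, other scalings, no filter, a stricter threshold, a replicate block and each library left out.

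The domain and all rules were chosen with earlier results of these data known. Peaks named are all called members, the 5 strongest, and the 2 nearest each limit on either side. Other peaks given with values were chosen after these were seen. The smallest chi-square per peak between 2 libraries was 1.19, so no pair differed by as little as counting noise alone; this does not show that the libraries came from separate mice.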

Additional observations from a re-analysis of the deposited data

Results flagged for a closer look

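The summed level and the 27 named domain peaks, in old and in young libraries, gave 56 groups of 4 values. In 6 groups 1 library was far from the other 3. Chance gives about 1 in 20, or 2.8, for independent groups. These groups share their libraries, and most of the peaks were named because they were called. The 2.8 is therefore given only for scale. Of the 6, 2 were old replicate 4. At peak 16 old replicate 4 had 9.30 CPM, the other old libraries 2.31 to 3.37 CPM. At peak 40 it had 35.6 CPM, the others 18.5 to 19.4 CPM. Young replicate 4 had 10.8 CPM at peak 17, the other young libraries 7.58 to 7.75 CPM, and 7.32 CPM at peak 38, the others 3.5 to 3.79 CPM. Young replicate 3 had 3.75 CPM at peak 14, the other young libraries 2.95 to 3.03 CPM, and 25.0 CPM at peak 57, the others 24.1 to 24.3 CPM. In counts, young replicate 3 had 15 at peak 14, the others 13 to 14, and 100 at peak 57, the others 104 to 115.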

How the results depend on the processing

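The number of domain peaks called lower was 21 as reported, 20 to 23 with DESeq2 size factors, total count scaling, no count filter, limma voom and the replicate block, and 16 with the DESeq2 test. At an adjusted p below 0.01 it was 11, with 0 peaks higher and the last lower peak starting at 101030884 instead of 101145785. The 1 higher call became 0 with total count scaling and with the DESeq2 test. With each library left out in turn, 13 to 26 peaks were lower and 0 to 1 higher, and the last lower peak started between 101030884 and 101145785. The last lower peak changed without old replicates 1, 2 or 3 or young replicates 2 or 4. The cause of these changes was not tested. The first lower peak was 100590981 under every alternative run. It is the leftmost domain peak, so no alternative could place the first one further left. The median log2 fold change of tested domain peaks lay between -0.59 and -0.44 under all alternatives run for it. The log2 ratio of summed levels lay between -0.47 and -0.34, also for tested peaks alone. Adding peaks that only overlap the limits could change nothing, because no peak crosses either limit. Peaks 1, 8, 14, 16, 18, 34, 35, 38, 45, 48 and 50 were called lower in every alternative fit at an adjusted p below 0.05. With the replicate block 23 peaks were lower and 1 higher. Deviations from the group means correlated at -0.014, 0.074, 0.049 and 0.18 for libraries numbered 1, 2, 3 and 4. Old replicates 2 and 4 correlated best with the young library of their own number. Old replicates 1 and 3 correlated best with young replicate 2. The match by number was thus mixed, and the numbers were not taken as pairs. The counts limit what can be seen at the 15 untested peaks, all under 2 CPM.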

Other observations

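Without old replicate 4, 5 further domain peaks were called lower and 0 were lost (edgeR, fitted over 76030 peaks). These were peaks 27, 31, 46, 49 and 53, chosen here after their values were seen. Peak 46, chr5:101001105-101001406, beside peak 45, had 0.255, 0.841, 0.692 and 4.34 CPM in old libraries, against 9.56, 11.2, 2.25 and 7.97 CPM in young libraries. Old replicates 1 to 3 were all below young replicate 3, the lowest young library, and old replicate 4 was above it. Its log2 fold change was -2.26 ± 0.69 (SE) with all libraries, the largest in the domain that was not called, and -3.61 ± 0.58 (SE) without old replicate 4. Peak 49, chr5:101019552-101020007, had 1.78, 0.841, 0 and 4.55 CPM in old libraries, against 3.5, 3.16, 0.750 and 5.17 CPM in young libraries, with young replicate 3 the lowest young and old replicate 4 the highest old library. Its log2 fold change was -0.79 ± 0.76 (SE) with all libraries and -1.87 ± 0.66 (SE) without old replicate 4. Peaks 31 and 53 had log2 fold changes of -1.01 ± 0.29 and -0.88 ± 0.32 (SE) without that library. The part of old replicate 4 in these differences was not tested further.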
